A study of Mus musculus with 3 samples.

Results

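The genes described here copy DNA or supply its building blocks. A list of 37 named genes was taken: the MCM2-7 helicase and its partners, the factors that license origins, the origin recognition complex, the replicative polymerases, the sliding clamp and its loader, the enzymes that join Okazaki fragments, and 5 enzymes of deoxynucleotide synthesis. They were found by gene name on an Agilent mouse array, where older forms such as Orc1l and Cdc45l are used, and all 37 were there among 27677 genes, with 58 probes.

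Tumours came from AID Tg mice, which carry activation-induced cytidine deaminase (AID) as a transgene. AID is an enzyme that deaminates cytosine in DNA. The liver array compared liver cancer with nontumour liver of the same AID Tg mouse, and the stomach array compared gastric cancer with nontumour stomach of the same AID Tg mouse. The lung comparison set lung cancer of an AID Tg mouse against normal lung of a wild-type mouse, so genotype and tumour cannot be told apart there. The promoter that drives the transgene and the age, sex and strain of the mice were not given in the sources used here. Each organ had 1 array of 2 colours, without replicates and without a dye swap, so each difference below is that of 1 pair of RNA samples and has no replicate check. No test was made, and so few arrays limit the precision.

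Ratios are given as log2(Cy5/Cy3), where 1 means 2-fold. A gene brighter in Cy5 is called Cy5-high, and one brighter in Cy3 is called Cy3-high. The direction was not settled: the labels name Cy3 as the tumour's dye, but the authors' deposited table files its Cy5-high spots as up in the tumour. Going by that table, Cy5 was the likely tumour channel, and going by the dye labels every sign would turn. The error of a gene is the standard deviation (SD) between its probes or, with 1 measured probe, the scanner software's error for that spot. Scanner values were used for liver and stomach, and lung scanner values were not analysed here.

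A cell copies its DNA in S phase. Origins are marked by the origin recognition complex, loaded with MCM2-7 by Cdc6 and Cdt1 in G1, and then fired once, while geminin (Gmnn) keeps Cdt1 from loading them again. Many of these genes are transcribed at the G1/S boundary under E2F factors, so in tissue their RNA is usually read as a sign of dividing cells. Most hepatocytes of adult liver rest outside the cell cycle, whereas the stomach lining is renewed from dividing cells in its glands.

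Since many of these genes are known to be under E2F factors, the DNA before the members' transcription starts was searched for strings of the E2F type. The 3 letter strings were TTTCCCGC, TTTGGCGC and TTTCGCGC, on both strands. How many members hold a string does not depend on the arrays. RefSeq windows of 300 bases on GRCm38.p6, with 250 bases before the start and 50 after it, were at hand for 32 of the 37 members. Of these, 13 members held at least 1 string (40.6%), against 2.12% of all 27025 genes in the table, and 4 of the 19 matches overlapped another match. The 250 bases before the start are shown for 3 helicase genes that hold a string, for Orc1l, which holds one but had a stomach ratio near 0, and for Rrm1, which holds none and had one of the highest ratios. Capitals mark the strings, which read as GCGGGAAA, GCGCCAAA or GCGCGAAA when they lie on the opposite strand. The Mcm5 sequence lies at chr8:75109259-75109508 (plus strand), Mcm6 at chr1:128359706-128359955 (minus strand), Mcm7 at chr5:138171884-138172133 (minus strand), Orc1l at chr4:108579204-108579453 (plus strand) and Rrm1 at chr7:102441445-102441694 (plus strand), each printed 5′ to 3′ along the gene.
Mcm5: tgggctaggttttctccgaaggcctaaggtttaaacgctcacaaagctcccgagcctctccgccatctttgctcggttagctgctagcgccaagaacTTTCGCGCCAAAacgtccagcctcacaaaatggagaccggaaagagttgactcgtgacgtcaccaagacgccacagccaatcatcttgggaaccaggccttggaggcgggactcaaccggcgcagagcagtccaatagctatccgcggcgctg
Mcm6: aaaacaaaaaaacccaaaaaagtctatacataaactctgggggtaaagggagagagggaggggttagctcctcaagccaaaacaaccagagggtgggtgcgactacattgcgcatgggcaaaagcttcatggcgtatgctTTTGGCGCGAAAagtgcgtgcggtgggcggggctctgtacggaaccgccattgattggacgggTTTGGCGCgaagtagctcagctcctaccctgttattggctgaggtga
Mcm7: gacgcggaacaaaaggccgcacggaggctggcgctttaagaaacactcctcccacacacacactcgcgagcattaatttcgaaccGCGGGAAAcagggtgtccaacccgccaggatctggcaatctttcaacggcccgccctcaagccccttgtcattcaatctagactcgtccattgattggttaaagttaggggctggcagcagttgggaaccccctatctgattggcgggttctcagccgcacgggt
Orc1l: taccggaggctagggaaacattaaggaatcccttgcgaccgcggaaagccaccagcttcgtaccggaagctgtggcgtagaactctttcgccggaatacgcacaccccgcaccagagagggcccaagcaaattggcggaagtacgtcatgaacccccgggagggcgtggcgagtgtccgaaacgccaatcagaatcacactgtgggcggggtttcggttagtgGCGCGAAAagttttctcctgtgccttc
Rrm1: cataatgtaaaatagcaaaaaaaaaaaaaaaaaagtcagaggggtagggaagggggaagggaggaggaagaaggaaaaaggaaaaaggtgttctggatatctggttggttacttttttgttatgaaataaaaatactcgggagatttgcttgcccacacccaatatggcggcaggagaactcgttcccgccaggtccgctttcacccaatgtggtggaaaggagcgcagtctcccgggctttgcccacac

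In Mcm5 and Mcm6, 2 strings on opposite strands overlap, and Mcm6 holds a further one closer to the start. The ratios did not separate members by these letters: the stomach median was 0.69 for the 13 members with a string and 0.72 for the 19 without. Members with a string reached from -0.11 (Orc1l) to 1.07 (Mcm5), and members without one from 0.03 (Orc2l) to 1.33 (Rrm1). CCAAT, the box bound by NF-Y, was in a window of 18 members (56.2%), against 41.1% of all genes. A match describes letters only and is no binding site, and a window without a match may still hold a site of other letters.

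The replication genes lay on the Cy5 side of the stomach array and near 0 on the liver array. In stomach, 20 of 37 members (54.1%) were at least 1.5-fold Cy5-high, against 3.23% of all 25322 genes measured, and 9 were at least 2-fold, against 0.873%. No member was 1.5-fold Cy3-high, against 3.29% of all genes (1.41% at 2-fold). The stomach median was 0.66 (all genes 0.001), and 35 members lay above 0, against 50.2% of all genes. In liver, none of the 35 measured members reached 1.5-fold in either direction, against 0.851% Cy5-high and 0.508% Cy3-high among 25606 genes (0.152% and 0.0703% at 2-fold). The liver median was -0.02 (all genes 0.01), with 16 members above 0, against 52.9% of all genes. The median raw signal of the members' spots was 198.5 in Cy3 and 175.5 in Cy5 in liver, and 205.5 and 331 in stomach, and no member spot was saturated. In bulk tissue, fewer cells of a type and less RNA per cell cannot be told apart.

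**Figure D1:**
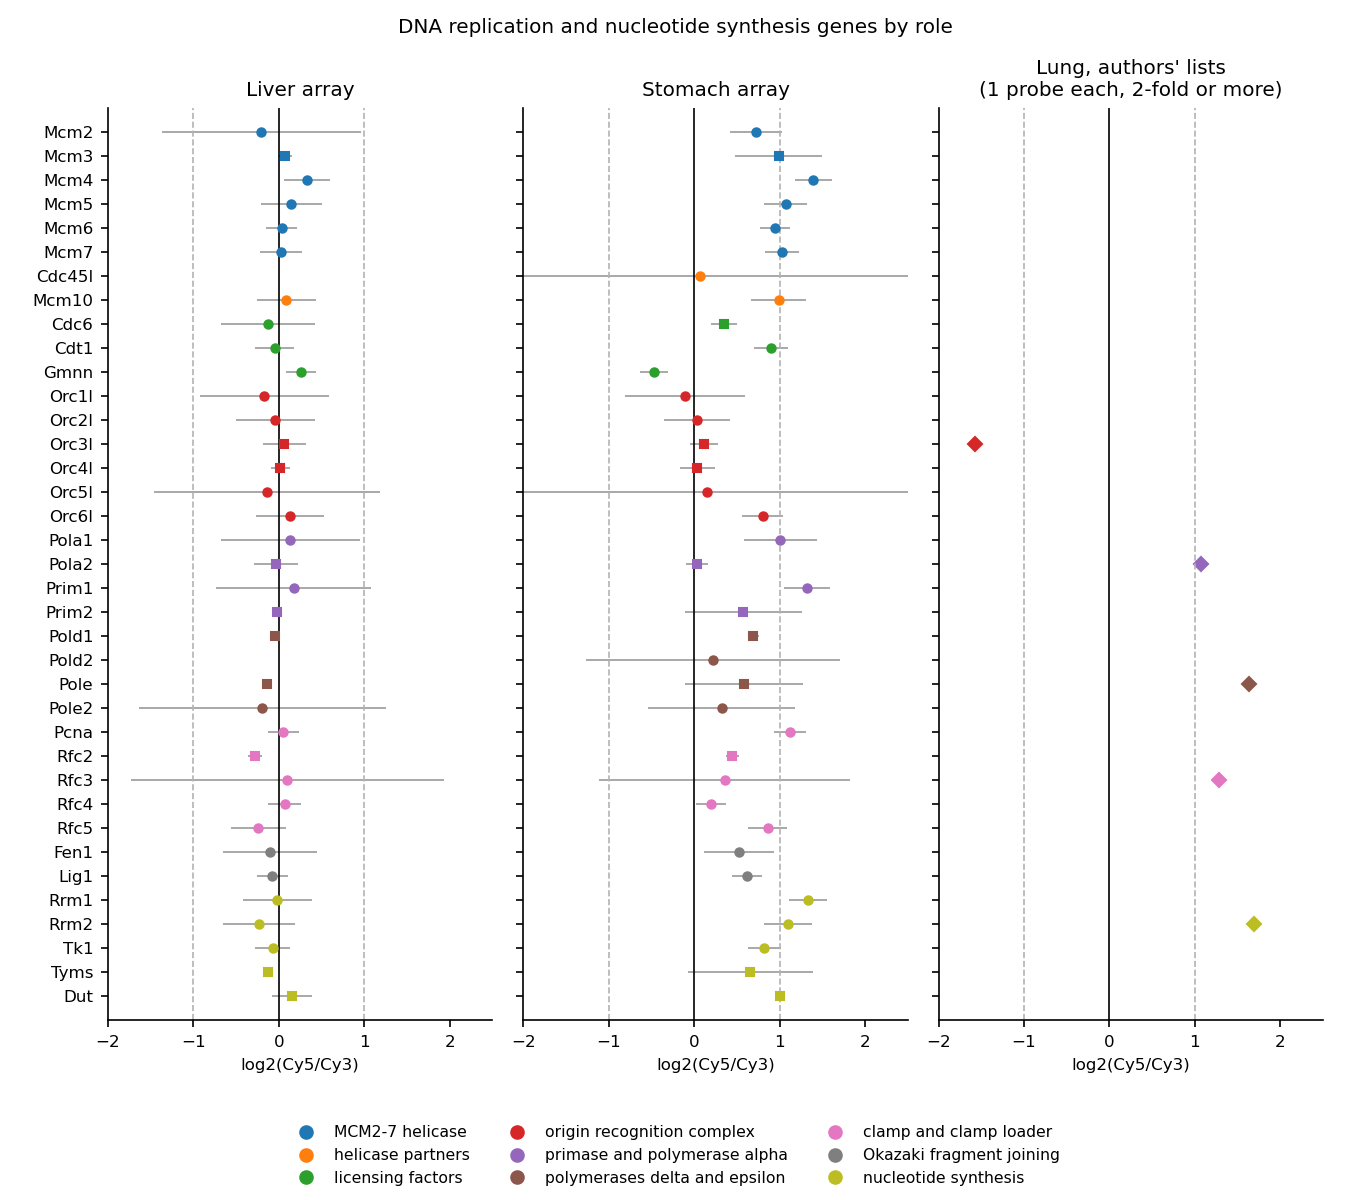
Log2(Cy5/Cy3) of each gene on the liver array, the stomach array and in the authors' lung lists, coloured by role. Points with 1 measured probe are circles and bars show the scanner error; squares are means of several probes with the SD between probes as bars; diamonds are single listed lung probes. Dashed lines mark 2-fold. The bars of Cdc45l and Orc5l in stomach run beyond the axis. The stomach points of the helicase and of nucleotide synthesis lie between 0.66 and 1.39, and every liver point lies between -0.28 and 0.33.

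All 6 subunits of the MCM2-7 ring, the motor that unwinds the template, were at least 1.5-fold Cy5-high in stomach, with a median of 1.01. Mcm4 had the highest ratio of all members: its log2 normalized signal was 8.52 in Cy3 and 9.91 in Cy5, a ratio of 1.39 (error 0.21, 2.63-fold). This value rests on 1 of its 2 probes, since the other was not well above background in either channel. Mcm5 read 7.78 in Cy3 and 8.85 in Cy5 (1.07, error 0.25), and Mcm7 read 8.73 and 9.75 (1.02, error 0.20). These 3 subunits passed 2-fold. Mcm6 read 10.52 in Cy3 and 11.47 in Cy5 (0.95, error 0.18), and Mcm2 read 7.52 and 8.24 (0.72, error 0.31). Mcm3 averaged 0.99, but its 2 probes stood at 0.63 and 1.35 (SD 0.51), so its size is less certain than its side.

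On the liver array the same ring showed no such shift, with a median of 0.05 and values from -0.21 (Mcm2, error 1.17) to 0.33 (Mcm4, error 0.26). Mcm4 read 7.87 in Cy3 and 8.20 in Cy5 and was the highest liver member. Mcm5 had 0.14, Mcm3 0.07, Mcm6 0.03 and Mcm7 0.03. Each of these 4 ratios was smaller than its own error.

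Of the proteins that turn the loaded ring into a moving helicase, Mcm10 was Cy5-high in stomach, with 7.37 in Cy3 and 8.36 in Cy5 (0.99, error 0.32). Cdc45l, which binds the ring together with the GINS complex, was too dim to measure well. It was not well above background in Cy3 in stomach (ratio 0.07, error 3.45) or in either channel in liver. The stomach ratio of Cdc45l was -0.32 with median centring and 0.88 in the scanner software's own ratios. Mcm10 had 0.09 in liver.

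The licensing factors went apart in stomach. Cdt1, which brings MCM2-7 to the origin, read 8.82 in Cy3 and 9.72 in Cy5 (0.90, error 0.20). Gmnn, the inhibitor of Cdt1, read 11.05 in Cy3 and 10.58 in Cy5 (-0.47, error 0.17), the lowest of all members and one of 2 below 0. That side depended on the scaling: Gmnn stood at 0.28 with median centring in place of loess. Cdc6, the loader ATPase, had 0.35 (SD 0.15 between 2 probes) with the offset used here and 1.30 in the scanner software's own ratios, where one of its probes was not well above background in Cy3. In liver, Gmnn read 9.52 and 9.78 (0.26, error 0.17), Cdt1 had -0.05 and Cdc6 -0.13.

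Most of the origin recognition complex stayed near 0 in stomach. Orc1l, the subunit known to come and go with the cell cycle, read 6.98 in Cy3 and 6.88 in Cy5 (-0.11, error 0.70). Orc2l had 0.03 (error 0.38), Orc3l 0.12 (SD 0.16 between 5 probes), Orc4l 0.04 (SD 0.20 between 4 probes) and Orc5l 0.15. Orc5l was not well above background in Cy3 (error 2.49). Its ratio was -0.14 with median centring and 1.33 in the scanner software's own ratios, so its side and size are uncertain. Of the 5 Orc3l probes, 2 run against the gene; without them its ratio was 0.06 in stomach and -0.08 in liver. With the offset used here, Orc6l was the exception among the 6 subunits, with 7.99 in Cy3 and 8.79 in Cy5 (0.80, error 0.24). The liver values of the complex ran from -0.17 (Orc1l) to 0.13 (Orc6l), with Orc5l at -0.14, Orc2l at -0.04, Orc3l at 0.07 and Orc4l at 0.02. With 1 array, the distance between Orc6l and the other subunits has no replicate check.

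Primase and polymerase alpha lay the first stretch of every new strand. Prim1, the catalytic primase subunit, read 7.57 in Cy3 and 8.89 in Cy5 in stomach (1.32, error 0.27, 2.50-fold). Pola1, the catalytic polymerase subunit, read 6.94 and 7.95 (1.01, error 0.43). Pola2, its accessory subunit, was near 0 (0.04, SD 0.13 between 2 measured probes). Prim2, the large primase subunit, averaged 0.58 over 2 probes that stood at 1.06 and 0.09. In liver these genes had 0.18 (Prim1), 0.13 (Pola1), -0.03 (Pola2) and -0.02 (Prim2).

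The polymerases that carry on from there had a stomach median of 0.45, against 0.79 for primase and polymerase alpha. In the scanner software's ratios, which carry no offset, these medians were 0.80 and 1.15. All 4 genes of polymerases delta and epsilon were at least 1.5-fold Cy5-high in those ratios (all genes 11.4%). Pold1, the catalytic subunit of polymerase delta, read 7.34 in Cy3 and 8.04 in Cy5 (0.69, SD 0.06 between 2 probes). Pole, that of polymerase epsilon, averaged 0.58 over 2 probes at 1.07 and 0.09. Their accessory subunits were dim, with Pold2 at 0.22 (error 1.48) and Pole2 at 0.32 (error 0.86). Pold2 was not measured in liver, and Pold1, Pole and Pole2 had -0.05, -0.14 and -0.19 there.

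Pcna, the sliding clamp that holds the polymerases on DNA and a common marker of dividing cells, read 9.64 in Cy3 and 10.76 in Cy5 in stomach (1.12, error 0.19, 2.17-fold). The small subunits of its loader were uneven. Rfc5 read 8.08 and 8.94 (0.86, error 0.23), whereas Rfc2 had 0.45 (SD 0.07 between 2 probes), Rfc3 0.36 (error 1.47) and Rfc4 0.20 (error 0.18). Rfc2 was the lowest member in liver, at 8.39 in Cy3 and 8.11 in Cy5 (-0.28, SD 0.08 between 2 probes), followed by Rfc5 at -0.24 (error 0.32). The liver ratios of Pcna, Rfc4 and Rfc3 were 0.05, 0.07 and 0.10.

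Of the enzymes that finish the lagging strand, Lig1, which seals the nicks, read 9.80 in Cy3 and 10.42 in Cy5 in stomach (0.62, error 0.17). Fen1, which trims the flaps, had 0.53 (error 0.41). Both lay below 0 in liver, at -0.08 and -0.11, within their errors.

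All 5 enzymes of deoxynucleotide synthesis were at least 1.5-fold Cy5-high in stomach, with a median of 1.002. Rrm1 and Rrm2 are the large and small subunits of ribonucleotide reductase, which turns ribonucleotides into deoxynucleotides. Rrm1 read 8.33 in Cy3 and 9.66 in Cy5 (1.33, error 0.22, on 1 of its 2 probes), and Rrm2 read 7.59 and 8.69 (1.10, error 0.28). Dut, which breaks down dUTP, read 8.17 and 9.17 (1.002, SD 0.04 between 2 probes). Tk1, the thymidine kinase of S phase, had 0.82 (error 0.20). Tyms, which makes thymidylate, averaged 0.66 over 3 probes at 1.10, 1.06 and -0.19. In liver the order was unlike that: Rrm2 read 7.49 in Cy3 and 7.25 in Cy5 (-0.23, error 0.43), Tyms had -0.12, Tk1 -0.07, Rrm1 -0.02 and Dut 0.15.

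**Figure D2:**
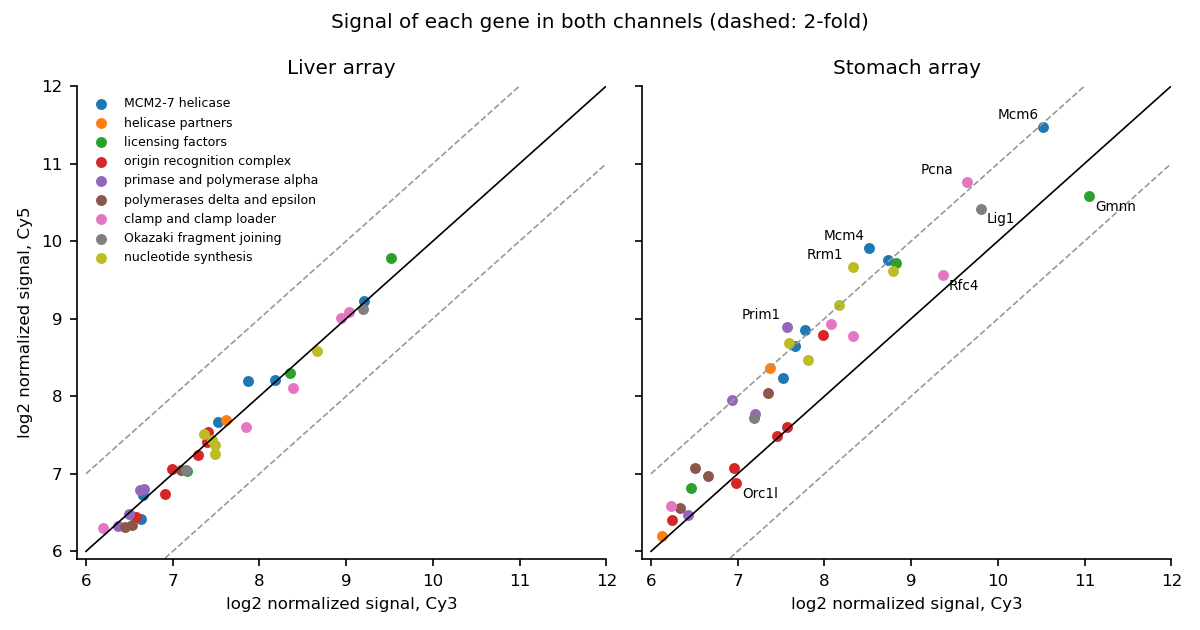
Log2 normalized signal of each gene in Cy3 (horizontal) and Cy5 (vertical) on the liver array (35 genes) and the stomach array (37 genes), coloured by role. The solid line marks equal signal and the dashed lines 2-fold. In liver the points follow the line of equal signal, and in stomach 35 of 37 lie above it, with Gmnn and Orc1l below.

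The sizes in stomach depended on the probe in several members, among them Mcm3, whose 2 probes are both of RefSeq transcripts. In Prim2, Pole and Tyms, the probes designed on RefSeq transcripts stood at 1.06 to 1.10, while 1 probe of each designed on another transcript record stood at 0.09, 0.09 and -0.19. The other Pole probe was not well above background in Cy3. Orc3l, Orc4l and Pola2 also have both kinds of probe. Their RefSeq probes averaged 0.06, 0.07 and 0.13, and their other probes 0.21, -0.05 and -0.05. Over all members, 25 of the 45 measured probes with a RefSeq accession were at least 1.5-fold Cy5-high (all such probes on the array, 4.92%). Of those with another accession, 1 of 9 was (1.96%). These counts cover 35 and 8 members, with 6 in both, so gene and kind of probe cannot be told apart in them.

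**Figure D3:**
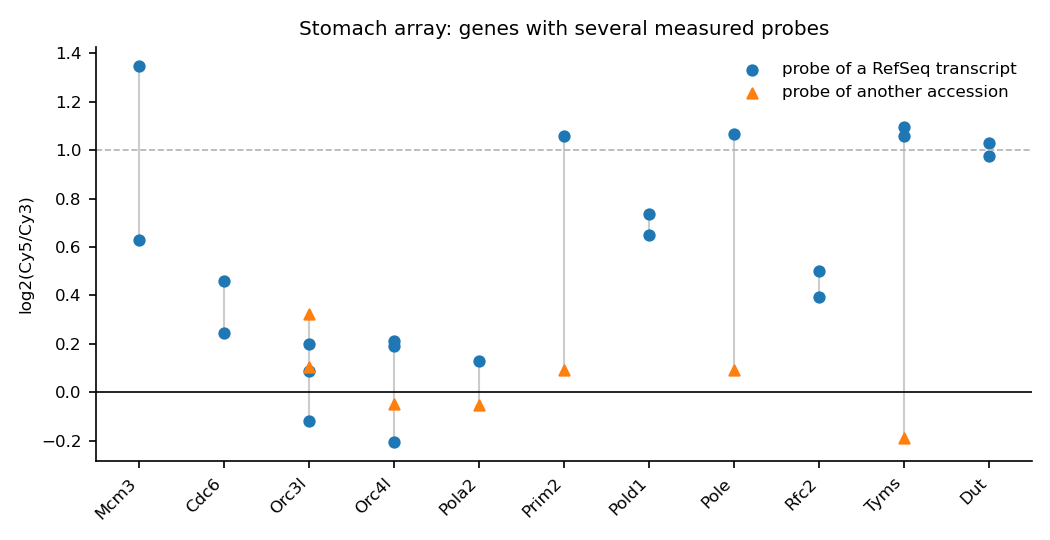
Log2(Cy5/Cy3) of each measured probe on the stomach array for the 11 genes with several measured probes, by the kind of transcript record it was designed on. The probes of Dut, Pold1 and Rfc2 lie close together, and those of Mcm3, Prim2, Pole and Tyms lie far apart.

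**Figure D4:**
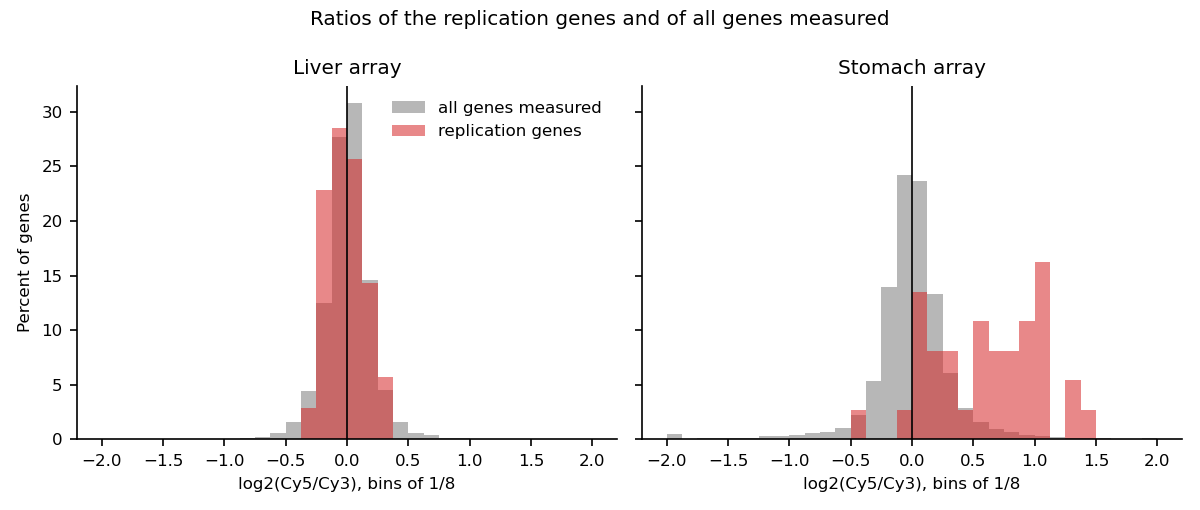
Share of genes (percent) in equal bins of log2(Cy5/Cy3), 8 to a log2 unit, for the replication genes and for all genes measured, with values beyond the axis in the outermost bins. The replication genes overlie all genes in liver and lie to their right in stomach, where their median was 0.66.

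Dim members had smaller ratios by construction, since the background offset of 50 pulls weak signals towards 0. In the scanner software's ratios, which carry no offset, 30 of 37 stomach members were at least 1.5-fold Cy5-high (all genes 11.4%) and 18 were at least 2-fold (4.32%). In liver 0 members reached 1.5-fold Cy5-high there, against 6.79% of all genes (2.11% at 2-fold). In the authors' deposited table, 22 members had a probe in the Cy5-high stomach list (5.17% of all genes) and 1, Gmnn, in the Cy3-high list (4.32%). These 22 were the 20 members named above with Prim2 and Pole added. The authors' deposited liver lists held 0 members on the Cy5 side (1.75% of all genes) and 0 on the Cy3 side (1.36%).

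**Figure D5:**
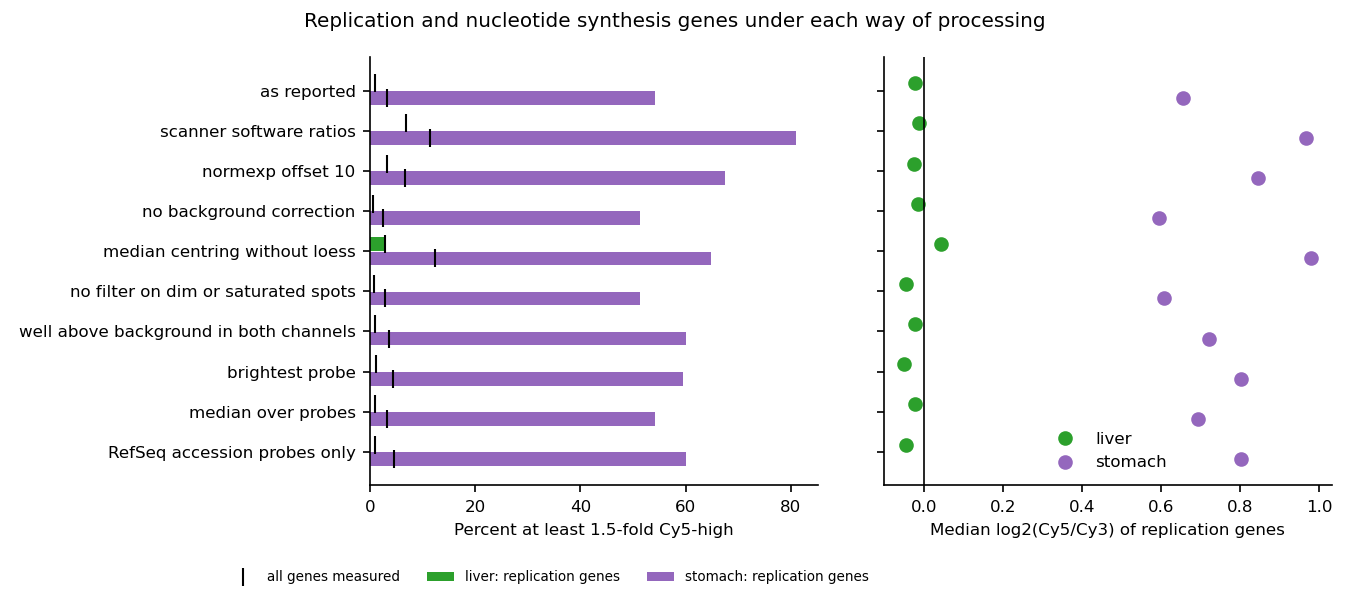
Percent of the replication genes at least 1.5-fold Cy5-high (left, bars from 0, with ticks for all genes measured) and their median log2(Cy5/Cy3) (right) under the processing reported and 9 others. The stomach median ranged from 0.60 to 0.98, and the liver median from -0.05 to 0.04.

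In lung, the authors' deposited table listed 4 members as Cy5-high, against 6.84% of all genes, and 1 as Cy3-high, against 12.4%. Among the members in that table's lung lists, Rrm2 had the highest value, 1.69 (3.23-fold), followed in the authors' deposited table by Pole at 1.63 (3.10-fold, 1 of 2 probes), Rfc3 at 1.28 and Pola2 at 1.08 (1 of 3 probes). These are the scanner software's own ratios, made without the offset and the loess fit used here for liver and stomach. Any dye correction by the software itself is part of them. In the same software ratios, these probes stood at 1.47, 1.82, 0.70 and 0.19 in stomach and at -0.33, -0.40, 0.06 and 0.25 in liver. These probes of Rrm2 and Pole thus passed 2-fold on the Cy5 side in lung and stomach but not in liver. Orc3l stood at -1.58 in the authors' deposited table (2.98-fold Cy3-high) through 1 of its 5 probes. That probe runs against the gene: its coordinates in the scanner files (chromosome 4, 34706381 to 34706440, build not given in the sources used here) ascend, while Orc3l lies on the minus strand. Of 46 member probes in 32 genes with a known strand, 44 ran with the gene, and the 2 that did not were both assigned to Orc3l. Whether the probe measures Orc3l RNA was not tested, and it stood at 0.53 in liver and 0.36 in stomach in the software ratios. The lists hold only spots of at least 2-fold, so the 32 members outside them have no lung value. In the same lists, all 8 endothelial markers, 6 of 8 alveolar and airway markers and 5 of 8 T cell markers were Cy3-high. So were 5 of 9 B cell and plasma cell and 5 of 8 smooth muscle markers. Cy5-high were 4 of 10 intestinal epithelium, 3 of 10 squamous epithelium and 3 of 12 hepatocyte markers, with 1 of each list Cy3-high. The part of these marker differences in the members' values was not tested.

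Set side by side, 34 of 35 members measured on both arrays had a higher ratio in stomach than in liver, against 48.93% of all genes, and the exception was Gmnn. The median distance between the organs was 0.74. The sign was the same in 16 members, against 58.9% of all genes: 15 lay above 0 in both organs and Orc1l lay below 0 in both. In 18 members the liver ratio was below 0 and the stomach ratio above it. Across the 35 members, liver and stomach ratios correlated at Pearson r = 0.21, and across all genes at 0.10, as a description over genes that share both arrays.

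Other replication fork and chromatin assembly genes also lay on the Cy5 side in stomach, with a median of 0.51 and 10 of 32 at least 1.5-fold Cy5-high, against 3.23% of all genes. Chaf1b, a subunit of the histone chaperone CAF-1, was highest at 1.08, then Uhrf1, which guides maintenance methylation, at 0.94 and Chtf18, of an alternative clamp loader, at 0.87. The lowest were Pold4 (-0.09), Rpa2 (-0.04) and Mcm8 (0.04). In liver none of 31 reached 1.5-fold. Gins2 (0.41), Dnmt1 (0.34) and Pole4 (0.17) were the highest there, and Rfc1 (-0.33), Rpa1 (-0.32) and Pold4 (-0.24) the lowest.

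The other enzymes of nucleotide synthesis, which also serve RNA synthesis and resting cells, lay closer to 0. Their stomach median was 0.10, and 1 of 33, Adss (0.67), was at least 1.5-fold Cy5-high, near the 3.23% of all genes. Atic (0.51) followed, and Mthfd2 (-0.58), Impdh1 (-0.48) and Nme2 (-0.43) were lowest. In liver the median was -0.11, Mthfd1, a folate enzyme, was 1.5-fold Cy3-high at -0.59, and Shmt2 (-0.40) and Ppat (-0.34) came next. Nme2 (0.47), Mthfd2 (0.31) and Dguok (0.26) were the highest liver values.

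Regulators of the G1/S step had a stomach median of 0.15, with 5 of 32 at least 1.5-fold Cy5-high (all genes 3.23%). Ccnd1, cyclin D1, had 0.96, E2f2 0.91 and Tfdp1 0.70, against Tfdp2 at -1.10, Myc at -0.43 and Rbl2 at -0.18. In liver, Ccnd1 was the 1 gene of 31 past 1.5-fold, at 1.11 (error 0.20), while no replication gene passed it. Cdc25a (0.27) and Mybl2 (0.26) came after it, and Ccna2 (-0.19), E2f5 (-0.18) and Cdk4 (-0.14) were lowest.

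Genes of mitosis and proliferation lay on the Cy5 side in stomach, with a median of 0.83, all 26 above 0 and 18 at least 1.5-fold Cy5-high (all genes 3.23%). Mki67 (1.53), Tpx2 (1.52) and Incenp (1.52) led, and Foxm1 (0.22), Ttk (0.36) and Cenpa (0.39) were lowest. In liver the median was 0.06 with none past 1.5-fold. Birc5 (0.36), Tpx2 (0.36) and Mki67 (0.28) were highest, and Cenpe (-0.21), Foxm1 (-0.12) and Cdca8 (-0.09) lowest. In the authors' deposited lung lists, genes listed as Cy5-high and Cy3-high numbered 5 and 4 of 32 fork genes, 7 and 4 of 33 nucleotide genes, 5 and 2 of 32 G1/S genes, and 9 and 0 of 26 mitosis genes, against 6.84% and 12.4% of all genes.

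Markers of several other cell types also differed between the channels in stomach, some on the Cy3 side and some on the Cy5 side. Of 12 gastric markers, 8 had passed 2-fold on the Cy3 side and 1 on the Cy5 side. Their summed processed signal was 4255670 in Cy3 and 836096 in Cy5. This list holds parietal and chief cell genes and also Gast, Ghrl, Muc6, Tff1 and Tff2, which mark other gastric cells. Of 10 squamous epithelium markers, 8 were 2-fold Cy3-high and 1 Cy5-high (333107 and 51783), and of 8 smooth muscle markers, 5 were Cy3-high (302808 and 98636). Of 9 intestinal epithelium markers, 5 were 2-fold Cy5-high and 1 Cy3-high (203688 and 942391). None of 8 T cell and none of 9 B cell and plasma cell markers reached 1.5-fold (14647.3 and 13833; 10422.7 and 10365). In liver, 3 of 10 hepatocyte markers were 1.5-fold Cy3-high and none Cy5-high, with summed signals of 1433900 and 1136280. The 12 measured on the stomach array summed to 19901.2 and 10173.5. Fibroblast and matrix markers lay on the Cy5 side in liver, with all 8 above 0, a median of 0.36 and 3 at least 1.5-fold Cy5-high (28338.3 and 43828.5), and 2 of 9 macrophage and neutrophil markers were 1.5-fold Cy5-high (64950.3 and 66669.8). The part of these differences in tissue makeup in the replication genes' ratios was not tested.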

How the data were processed

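RNA of 3 tissue pairs was hybridised to Agilent 2-colour arrays, 1 array per organ. Per the file headers, the deposited intensity columns hold mean spot and median background intensities, not normalized, and Agilent Feature Extraction 8.5.1.1 read the scans, per the submitters' processing notes. The deposited log10 ratio is red (Cy5) over green (Cy3), with the software's error, per the file headers, and a deposited p-value of that ratio for 1 spot, which was not used. The authors' deposited gene table gives the same log10 ratio; for liver and stomach it equalled the scanner files, and for lung its spots were joined by spot number (2288 Cy5-high, 4064 Cy3-high, from 2.0-fold). Of 829 genes with several listed lung probes, 96.9% had all on the same side.

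Background was corrected with normexp (offset 50) and ratios normalized by loess within each array in limma 3.58.1 (R 4.3.3). These steps were tested on simulated data with changes placed on brighter spots alone, so the recovery of changes in dim spots was not tested. Control spots and outliers were left out. Probes not well above background in either channel, or saturated in both, were left out too. Probes were averaged per gene on the log2 scale of the deposited intensities. Probes well above background made up 84.1% in Cy3 and 90.0% in Cy5 on the liver array, and 82.3% and 88.8% on the stomach array. The pooled SD between probes of a gene was 0.18 log2 units in liver and 0.26 in stomach. Of 41174 probes, 79.4% were named through a RefSeq table (GRCm38.p6); the rest kept the file's name.

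Every member is named, and of each other gene list the 3 highest and 3 lowest per array, except 1 gene that is not reported here. Members and lists were chosen with earlier results of these data known. Alternatives were 8 planned settings of background, scaling, filter and probe choice and 1 added after seeing the data.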

Additional observations from a re-analysis of the deposited data

Results flagged for a closer look

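In 6 members the liver and stomach ratios pointed in opposite directions, each by more than the pooled SD between probes of its array. Each organ had 1 array, and the difference between organs was not tested. Gmnn stood at 0.26 in liver and -0.47 in stomach. With median centring in place of loess it stood at 0.59 and 0.28, above 0 in both organs. Mcm2 stood at -0.21 and 0.72, Rfc2 at -0.28 and 0.45, and Rfc5 at -0.24 and 0.86. Pole2 stood at -0.19 and 0.32, with scanner errors of 1.45 and 0.86 that exceed both values. Rrm2 stood at -0.23 in liver, 1.10 in stomach and, in the authors' deposited table, 1.69 in lung. The lung value is a software ratio without offset; in that unit Rrm2 stood at -0.33 in liver and 1.47 in stomach. Of the liver values, those of Gmnn and Rfc2 alone exceeded their own error.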

How the results depend on the processing

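No paired analysis was possible because each organ had 1 array. The processing was changed in 9 ways, and the stomach members kept a median between 0.60 and 0.98. In stomach, 17 of the 33 members measured under all 9 were at least 1.5-fold Cy5-high in each, and 27 were above 0 in each. The same counts over all genes are not given here. Of 37 members, 7 turned sign in stomach under at least 1 setting (Gmnn, Orc2l, Orc4l, Orc5l, Pola2, Pold2 and Cdc45l), and of 35 in liver, 12 did. No setting moved the median of all genes by over 0.1, and the cause of the changes below was not tested.

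With the scanner software's ratios, 18 stomach members were 2-fold Cy5-high and the median was 0.97, against 9 and 0.66 as reported. With median centring these were 18 and 0.98, and without background correction 4 were 2-fold. The 2-fold share of all genes is not given here under either of these settings. At 1.5-fold Cy5-high in stomach, median centring gave 64.9% of members against 12.3% of all genes. Without background correction the shares were 51.4% and 2.42%. Median centring put 1 liver member past 1.5-fold, against 0; it also raised the Cy5-high share of all 1.5-fold genes from 62.6% to 72.7% in liver and from 49.6% to 74.7% in stomach. The share of all genes at least 1.5-fold Cy5-high moved too. In liver it was 0.851% as reported, 6.79% with software ratios, 3.16% with an offset of 10 and 2.86% with median centring. In stomach it was 3.23%, 11.4%, 6.55% and 12.3%, 2.42% without background correction and 4.29% with the brightest probe. Counts of the other lists moved beside these shares. In liver, the 1.5-fold Cy5-high count of fork genes went from 0 to 2 with software ratios and 2 with an offset of 10. That of nucleotide genes went to 1 with median centring, that of G1/S genes from 1 to 4 with software ratios, and that of mitosis genes from 0 to 3, 2 and 1 with software ratios, the smaller offset and median centring. In stomach, fork genes numbered 20, 19, 6 and 18 with software ratios, the smaller offset, no background correction and median centring, against 10. Nucleotide genes numbered 6, 4, 9 and 0 with software ratios, the smaller offset, median centring and the brightest probe, against 1. G1/S genes numbered 13, 8, 9 and 8 under the same settings, against 5. The mitosis median was 1.32 with software ratios and 1.16 with median centring, against 0.83. In lung, 2 members were Cy5-high and 0 Cy3-high both from 3-fold and when every probe had to be listed, against 4 and 1. The shares of all genes under these stricter rules are not given here, so these lung counts have no background beside them.

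Counted once for each member under each setting, 21 values in liver moved by more than the pooled SD between probes and 292 did not. In stomach 53 moved and 276 did not. Mcm4 and Rrm1 fell to 0.61 and 0.58 in stomach when dim spots were kept. Each has a second probe that was not well above background in either channel. Dim signal limits members such as Cdc45l, Orc5l, Pola2, Pold2, Pole2 and Rfc3.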
